A study of Mus musculus with 37 samples.

Results

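The genes described here are 10 that encode matricellular and scar glycoproteins, namely Fn1, Postn, Sparc, Spp1, Thbs1, Thbs2, Thbs4, Tnc, Comp and Cilp. They were taken by name, and no measured value enters the rule, but they were chosen with earlier results of these data known. All 10 were found among the 30892 genes of the cardiac fibroblast (CF) table, the 20158 genes of the neonatal rat ventricular myocyte (NRVM) table and the 31053 genes of the single-cell tables. Matricellular proteins are secreted into the extracellular matrix without forming its main fibers. They act by binding collagens, integrins, proteases and growth factors, and in the heart most of them are scarce until an injury, when cells of the forming scar make them.

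The study asked how ENPP1, an enzyme that splits extracellular ATP to AMP, changes nonmyocytes after heart injury, through what cardiac muscle cells release when exposed to ATP or AMP. CFs were a mouse line immortalized with the SV40 antigen, from wild type C57BL/6 mice. After a day in serum-free medium they were given medium conditioned by NRVMs that had received vehicle, ENPP1, ATP, ENPP1+ATP or AMP, and were collected at 24 h or 48 h, with 2 libraries in each of 10 groups. NRVMs, from neonatal Sprague-Dawley rats, had 5 groups at 24 h with the same media names in the labels and 3 libraries each, counted on rat genes. Their labels call the treatments conditioned medium and list the organism as mouse, although cell type, strain, genome build and gene names are rat. Whether NRVMs received such medium or the agents themselves cannot be read from the counts, and the names are used as labeled. The single-cell libraries hold nonmyocytes of the injured region at day 7 after a lasting tie of the LAD, the coronary artery that feeds the front of the left ventricle. The ENPP1CKO library came from mice with ENPP1fl/fl alleles and Col1a2CreERT, a tamoxifen-driven Cre under a fibroblast promoter, with tamoxifen given from before the injury until collection. The control library came from C57BL/6 animals given as wild type in the labels. Each genotype is 1 library, and the number of hearts, their sex and their age are not given in the sources used here. The study's methods call replicates biological, but neither they nor the labels say whether bulk libraries came from separate cultures, so p-values measure the spread between these samples, which may be technical.

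CF libraries held 32184799 to 115824659 reads and NRVM libraries 13481389 to 16977980. Of the fibroblast identity list, 11 of 13 genes averaged over 1 CPM (counts scaled to a common library size) in every CF group, but Thy1 stayed at 0.0915 CPM or less and Lum at 0.336 CPM or less in every CF library. NRVM libraries in vehicle medium carried 25764 to 27167 CPM of fibroblast genes beside 46672 to 49034 CPM of cardiomyocyte genes, so the rat cultures were not myocytes alone. In the single-cell data, 7255 ENPP1CKO and 5238 control cells formed 18 clusters, of which 17 could be named from markers, and 68 barcodes occurred in both libraries. Enpp1 in fibroblast-like cells was at 28.5 CPM in the ENPP1CKO library and 127 CPM in the control library, the direction given by the labels.

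The RefSeq table of mouse promoters (GRCm38.p6) held 7 of the 10 genes with 10 entries. Fn1, Thbs1 and Comp had none. Tnc, Postn and Spp1 had 2 entries each, and the one nearest the annotated gene start is given. Shown are the 250 bases before the start of 4 genes that stand for the directions described in what follows: Tnc and Postn, which fell in the bulk cultures, Spp1, which rose there, and Cilp, which was higher in the ENPP1CKO library. They lie at chr4:64047016-64047265 on the minus strand (Tnc), chr3:54360857-54361106 (Postn), chr5:104434861-104435110 (Spp1) and chr9:65264930-65265179 (Cilp), the last 3 on the plus strand. Capitals mark matches on either strand to a TATA box (TATAAA), an AP-1 site (TGANTCA), a TEAD site (GGAATG) or a SMAD element (CAGACA).
Tnc: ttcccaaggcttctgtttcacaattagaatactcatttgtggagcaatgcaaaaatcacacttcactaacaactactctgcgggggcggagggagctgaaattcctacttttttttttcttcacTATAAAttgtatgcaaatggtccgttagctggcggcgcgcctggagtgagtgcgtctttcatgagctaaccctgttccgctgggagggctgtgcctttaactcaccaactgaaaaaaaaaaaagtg
Postn: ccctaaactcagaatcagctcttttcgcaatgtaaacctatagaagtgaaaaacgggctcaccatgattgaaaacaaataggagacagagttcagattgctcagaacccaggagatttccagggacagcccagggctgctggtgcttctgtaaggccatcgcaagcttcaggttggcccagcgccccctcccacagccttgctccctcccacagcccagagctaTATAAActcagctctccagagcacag
Spp1: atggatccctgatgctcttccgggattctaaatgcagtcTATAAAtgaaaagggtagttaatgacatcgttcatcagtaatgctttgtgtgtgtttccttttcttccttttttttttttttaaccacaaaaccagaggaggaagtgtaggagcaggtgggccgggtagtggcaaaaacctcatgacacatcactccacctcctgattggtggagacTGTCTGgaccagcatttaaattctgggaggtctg
Cilp: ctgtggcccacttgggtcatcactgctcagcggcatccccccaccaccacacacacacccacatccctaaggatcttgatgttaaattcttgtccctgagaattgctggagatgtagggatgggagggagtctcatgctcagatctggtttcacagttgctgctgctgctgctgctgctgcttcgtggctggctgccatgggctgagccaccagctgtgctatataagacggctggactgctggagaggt
Postn had TATAAA at 26 to 21 bases before the start and Tnc at 126 to 121 bases. Spp1 had it at 211 to 206 bases, and a CAGACA element on the minus strand at 34 to 29 bases. None of the 4 motifs occurred in the Cilp window. The entry of Tnc not printed had TATAAA at 205 to 200 bases and CAGACA on the minus strand at 71 to 66 bases, and those of Postn and Spp1 had no match. Matches overlapped no other motif in these windows. Over all 32851 promoter entries, 12.4% held TATAAA, 6.75% TGANTCA, 12.6% GGAATG and 17.1% CAGACA, so single matches are common. They describe letters and are no evidence of binding.

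In CFs the 10 genes spanned levels from abundant to nearly absent. Divided by exon length, the vehicle group at 24 h stood at 639.9 CPM per kilobase for Sparc, a collagen-binding glycoprotein, and at 441 for Fn1, the fibronectin of the provisional matrix. Thbs1, an adhesive glycoprotein that activates latent TGF-beta and binds CD47 and CD36, was at 82.7 CPM per kilobase and Spp1, the osteopontin that binds integrins and CD44, at 72.9. Tnc, the tenascin of wound borders, was at 22.1 and Postn, the periostin made by activated fibroblasts, at 8.70. Thbs2, an inhibitor of vessel growth, was at 0.512 CPM per kilobase, and Comp, a thrombospondin of cartilage and tendon, at 0.375. Thbs4, a thrombospondin of muscle and tendon, and Cilp, a matrix protein that binds TGF-beta, had 0 to 0.147 and 0.0459 to 0.238 CPM in single libraries. They were too low to test, which left 8 of the 10 genes among 17879 tested. On GRCm38 the genes lie at chr11:55394500-55423183 (Sparc), chr1:71585520-71653200 (Fn1), chr2:118111876-118127133 (Thbs1), chr5:104435118-104441050 (Spp1), chr4:63959785-64047015 (Tnc), chr3:54361109-54391037 (Postn), chr17:14665500-14694235 (Thbs2), chr8:70373558-70382066 (Comp), chr13:92751590-92794818 (Thbs4) and chr9:65265180-65280605 (Cilp).

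**Figure D1:**
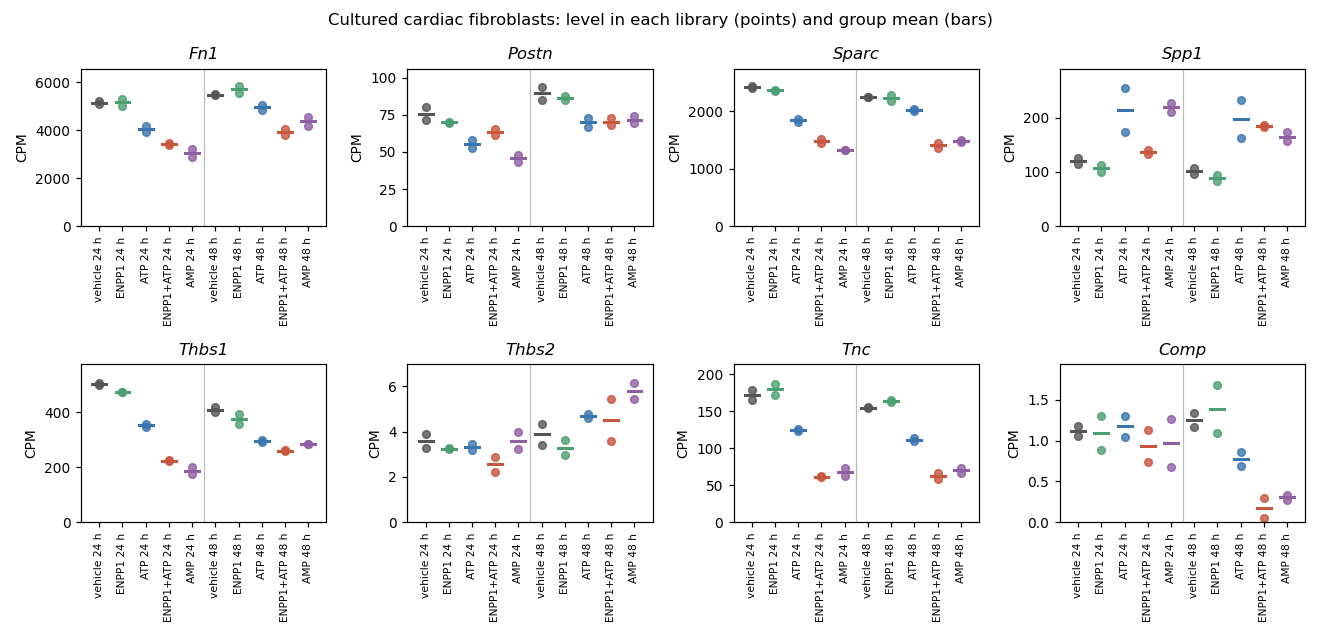
Level in CPM of the 8 genes tested in CFs, by medium and time. Points are libraries, bars are group means, and each vertical axis starts at 0. Tnc libraries in ENPP1+ATP and AMP medium lie between 58.2 and 73.8 CPM, below every vehicle library.

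Medium from NRVMs given the enzyme alone left these genes near vehicle. At 24 h none of the 8 genes was called against a background of 0% of all genes, and at 48 h none against 0%. edgeR gave 249 genes at 24 h and 743 at 48 h with an unadjusted p under 0.05, and DESeq2 called 0 genes at each time. Log2 fold changes lay between -0.18 for Spp1 and 0.07 for Tnc at 24 h, and between -0.24 for Thbs2 and 0.15 for Comp at 48 h. The 95% interval was narrow for Sparc, -0.12 to 0.06 at 24 h, and wide for Comp, -0.82 to 0.76, so a change of moderate size in Comp could not be seen at its depth.

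Medium from NRVMs given ENPP1+ATP lowered 5 of the 8 genes at 24 h and raised none, against a background of 49.1% of genes called. Tnc stood at 165 and 178 CPM in the vehicle libraries and at 60.5 and 63.0 CPM in the ENPP1+ATP libraries. It was 2.78-fold lower, a log2 fold change of -1.47 ± 0.07 (SE, adjusted p = 1.99e-14). Thbs1 went from 498 and 506 CPM to 225 and 221 CPM, 2.25-fold lower (-1.17 ± 0.05, adjusted p = 8.24e-15). For both genes the groups lay far apart and did not overlap.

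Sparc, Fn1 and Postn also fell. Sparc was at 2441 and 2407 CPM in vehicle and at 1452 and 1525 CPM in ENPP1+ATP medium (-0.70 ± 0.05, adjusted p = 5.05e-12), and Fn1 at 5077 and 5228 CPM against 3469 and 3392 CPM (-0.59 ± 0.06, adjusted p = 4.33e-09). Postn had the smallest fall, from 80.2 and 71.2 CPM to 65.8 and 61.3 CPM (-0.26 ± 0.07, adjusted p = 0.00331). The Postn call was lost without vehicle replicate 1 (-0.17, adjusted p = 0.111) and without ENPP1+ATP replicate 2 (-0.20, adjusted p = 0.0718). Thbs2 (-0.49 ± 0.21, adjusted p = 0.0539), Spp1 (0.19 ± 0.19, adjusted p = 0.439) and Comp (-0.24 ± 0.41, adjusted p = 0.66) did not pass. Thbs2 did pass without ENPP1+ATP replicate 2 (-0.69, adjusted p = 0.041). Without the filter on low counts both Thbs2 (-0.53, adjusted p = 0.0412) and Spp1 (0.16, adjusted p = 0.0171) passed, so that Spp1 was then called higher. That Spp1 estimate was no larger than the uncalled 0.19 of the main fit, so its call rests on how the unfiltered fit estimated the spread.

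At 48 h ENPP1+ATP medium lowered 6 genes and raised 1, against 45.2% of genes called. Tnc again stood well apart, at 154 and 156 CPM in vehicle and 58.2 and 66.4 CPM in ENPP1+ATP medium (-1.32 ± 0.07, adjusted p = 1.07e-13). Comp had 63 and 64 reads in the vehicle libraries and 13 and 2 reads in the ENPP1+ATP libraries, or 1.16 and 1.33 CPM against 0.298 and 0.0541 CPM. It was 6.71-fold lower (-2.75 ± 0.50, adjusted p = 7.43e-05), the largest fall of the list on few reads. Sparc (-0.68 ± 0.05), Thbs1 (-0.65 ± 0.05), Fn1 (-0.48 ± 0.06) and Postn (-0.34 ± 0.07) fell with adjusted p of 0.000223 or lower.

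Spp1 moved the other way. Its vehicle libraries at 48 h held 107 and 96.3 CPM and its ENPP1+ATP libraries 187 and 182 CPM, 1.82-fold higher (0.86 ± 0.19, adjusted p = 0.00314) with no overlap between the groups. Thbs2 was at 4.34 and 3.41 CPM in vehicle and 5.44 and 3.57 CPM in ENPP1+ATP medium, and did not pass (0.22 ± 0.20, adjusted p = 0.409). Its groups overlapped.

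AMP medium lowered 5 genes and raised 1 at 24 h (background 52.8%), and lowered 6 and raised 2 at 48 h (background 44%). It shares its vehicle libraries with the comparisons above. At 24 h Thbs1 was at 176 and 201 CPM, 2.67-fold below vehicle (-1.41 ± 0.05, adjusted p = 1.63e-16), and Tnc at 62.9 and 73.4 CPM (-1.33 ± 0.07, adjusted p = 5.88e-14). Sparc (-0.87 ± 0.05), Fn1 (-0.76 ± 0.06) and Postn (-0.74 ± 0.07) also fell. Spp1 reached 228 and 211 CPM against 126 and 115 CPM in vehicle, 1.82-fold higher (0.87 ± 0.19, adjusted p = 0.0023).

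By 48 h the falls in AMP medium were Tnc -1.14 ± 0.07, Sparc -0.60 ± 0.05, Thbs1 -0.52 ± 0.05, Fn1 -0.33 ± 0.06 and Postn -0.32 ± 0.07, all with adjusted p of 0.000547 or lower. Comp had 14 and 12 reads, a 4.08-fold lower level (-2.03 ± 0.46, adjusted p = 0.000875). Spp1 (0.70 ± 0.19, adjusted p = 0.0111) and Thbs2 (0.58 ± 0.20, adjusted p = 0.0219) rose. Both rises were lost when a library was left out. Without AMP replicate 1 or vehicle replicate 2, Spp1 had an adjusted p of 0.0606 and 0.0818. Without AMP replicate 2 or vehicle replicate 2, Thbs2 had 0.135 and 0.227.

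ATP medium changed fewer genes of the transcriptome. At 24 h it lowered 5 and raised 1 of the 8 (background 11.1%), and at 48 h it lowered 4 and raised 1 (background 7.83%). With 1 library left out, 5 to 6 of them were called at 24 h and 2 to 4 at 48 h, the fewest without vehicle replicate 1. Over all genes the calls then went from 1983 to between 920 and 1205 at 24 h and from 1400 to between 646 and 929 at 48 h. Falls at 24 h ranged from -0.51 ± 0.05 for Thbs1 to -0.35 ± 0.06 for Fn1. At 48 h Tnc (-0.47 ± 0.07), Thbs1 (-0.46 ± 0.05), Postn (-0.35 ± 0.07) and Sparc (-0.15 ± 0.05) were lower. Spp1 libraries in ATP medium were unequal, 255 and 173 CPM at 24 h and 163 and 232 CPM at 48 h, all above the vehicle libraries of their time (0.83 ± 0.19, adjusted p = 0.0156; 0.96 ± 0.19, adjusted p = 0.00949).

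At 24 h the Spp1 call was lost without ATP replicate 1 (adjusted p = 0.134), vehicle replicate 1 (0.0833) or vehicle replicate 2 (0.118). At 48 h it was lost without ATP replicate 2 (0.0757), vehicle replicate 1 (0.0633) or vehicle replicate 2 (0.0923). The Sparc call at 48 h was lost in each of 4 fits that left out a library (adjusted p 0.158 to 0.303), and Postn at 48 h without vehicle replicate 1 (0.0907).

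Adding the enzyme to ATP was tested directly. Against ATP medium, ENPP1+ATP medium lowered 5 genes and raised 1 at 24 h (background 43.9%) and lowered 5 at 48 h (background 39.5%). Tnc differed most at 24 h, with 123 and 126 CPM in ATP medium and 60.5 and 63.0 CPM with the enzyme (-1.01 ± 0.07, adjusted p = 3.25e-11), and at 48 h by -0.85 ± 0.07. Thbs1 differed by -0.66 ± 0.05 at 24 h and -0.18 ± 0.05 at 48 h, Sparc by -0.31 ± 0.05 and -0.53 ± 0.05, and Fn1 by -0.24 ± 0.06 and -0.34 ± 0.06.

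Postn was higher with the enzyme at 24 h (0.20 ± 0.07, adjusted p = 0.0256) and Spp1 lower (-0.64 ± 0.19, adjusted p = 0.0171). Neither call held without single libraries. Postn was lost without ATP replicate 2 (adjusted p = 0.315) or ENPP1+ATP replicate 1 (0.229), and Spp1 without ATP replicate 1 (0.183) or either ENPP1+ATP library (0.065 and 0.0905). Comp was lower at 48 h (-2.05 ± 0.53, adjusted p = 0.00276), which became 0.0529 without ENPP1+ATP replicate 2.

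**Figure D2:**
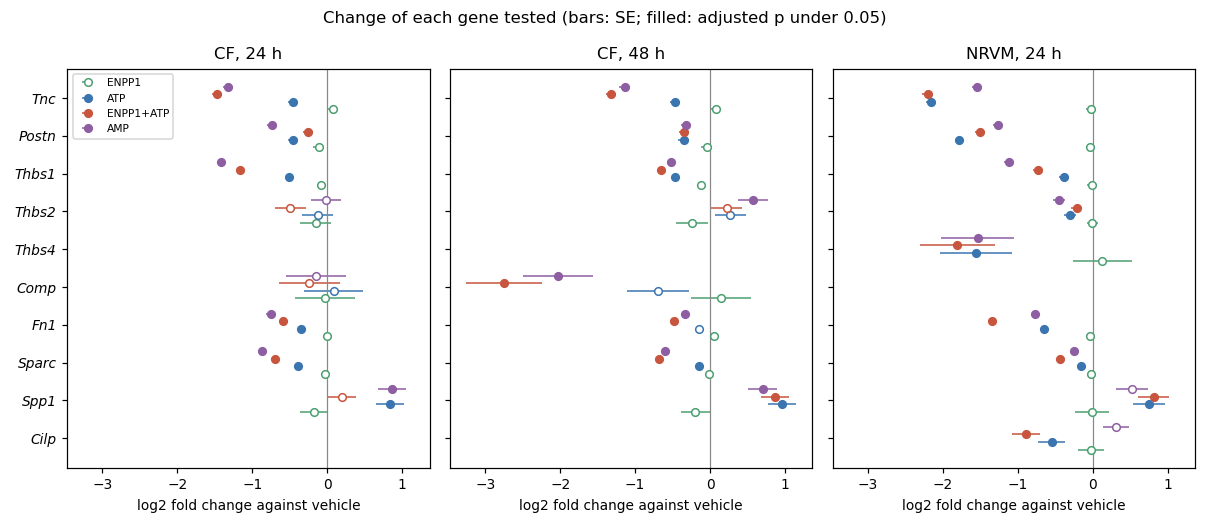
Log2 fold change against vehicle for each gene tested, in CFs at 24 h and 48 h and in NRVMs at 24 h. Bars are standard errors and filled points have an adjusted p under 0.05. Tnc lies at -1.47 (CF, 24 h), -1.32 (CF, 48 h) and -2.20 (NRVM) with ENPP1+ATP, and points for ENPP1 alone lie near 0.

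Time in culture itself changed 2 of the 8 genes in vehicle medium, against 4.88% of all genes. Thbs1 went from 498 and 506 CPM at 24 h to 419 and 399.9 CPM at 48 h (-0.29 ± 0.05, adjusted p = 0.0011). Postn rose from 80.2 and 71.2 CPM to 94.0 and 84.8 CPM (0.24 ± 0.07, adjusted p = 0.0441), a call lost without vehicle 24 h replicate 2 (adjusted p = 0.558) or either 48 h library (0.542 and 0.0509). The change of the ENPP1+ATP effect between the times passed for 2 genes, against 30% of genes, and that of the AMP effect for 5, against 31.7%. That of Spp1 for ENPP1+ATP (0.67, adjusted p = 0.0845) did not pass in edgeR, but did in DESeq2 (0.68, adjusted p = 0.035) and without the filter on low counts (0.69, adjusted p = 3.49e-16). The estimate hardly moved on the same 2 libraries per group, so the last p-value rests on how that fit estimated the spread. That of Thbs2 (0.71, adjusted p = 0.0679) passed without ENPP1+ATP 24 h replicate 2 (0.0473) or ENPP1+ATP 48 h replicate 2 (0.0117). For AMP, Tnc (0.19, adjusted p = 0.148) passed without AMP 24 h replicate 2 (0.0148) and with the replicate number as a block (0.048). The fall of Thbs1 was smaller at 48 h in both media, by 0.52 ± 0.07 (adjusted p = 6.42e-06) and 0.89 ± 0.07 (adjusted p = 1.76e-09). The fall of Comp was larger at 48 h, by a difference of -2.50 ± 0.66 (adjusted p = 0.00482) for ENPP1+ATP and -1.88 ± 0.61 (adjusted p = 0.021) for AMP. The last was lost without AMP 24 h replicate 2 (adjusted p = 0.14), AMP 48 h replicate 2 (0.0797), vehicle 24 h replicate 1 (0.0723) or vehicle 48 h replicate 2 (0.0686). The falls of Fn1 (0.43 ± 0.08), Postn (0.42 ± 0.10) and Sparc (0.27 ± 0.07) in AMP medium were also smaller at 48 h, with adjusted p of 0.00253 or lower.

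Markers of cell identity moved in the same libraries. The summed fibroblast list was 10286 to 10795 CPM in vehicle medium at 24 h and 4473 to 5320 CPM in AMP and ENPP1+ATP medium, and at 48 h 9859.6 to 10364 against 6586 to 7086 CPM. The summed macrophage list rose from 3.19 to 3.22 CPM in vehicle medium at 24 h to 46.1 to 46.2 CPM in AMP medium, and reached 56.4 to 72.3 CPM at 48 h in AMP and ENPP1+ATP medium. Only 2 of its 9 genes, Cd68 and Csf1r, averaged over 1 CPM, and the defining C1qa, C1qb, C1qc and Ptprc were at 0.167 CPM or less in every library. The smooth muscle list rose from 163 to 169.7 CPM in vehicle at 48 h to 400.01 to 468 CPM in ENPP1+ATP and AMP medium, with Notch3 its leading gene. Their part in the members' changes was not tested, and in bulk RNA fewer cells of a type and less RNA per cell cannot be told apart.

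Genes around the 10 were followed in 4 fixed lists, to be read against the 49.1% of all genes called with ENPP1+ATP at 24 h (4522 lower, 4265 higher) and 45.2% at 48 h (4357 lower, 3719 higher), and the 52.8% and 44% called with AMP. Of 40 relatives such as fibulins, fibrillins, matrilins and CCN proteins, 36 were tested in CFs. ENPP1+ATP medium lowered 21 and raised 6 at 24 h (median log2 fold change -0.65, all genes -0.0046), and lowered 24 and raised 4 at 48 h (median -0.78, all genes -0.027). AMP medium lowered 21 and raised 6 at 24 h, and lowered 22 and raised 4 at 48 h. ATP medium lowered 19 and raised 2 at 24 h (background 11.1%), and lowered 10 and raised 4 at 48 h (background 7.83%). Matn4, a matrilin that links matrix fibers, was 13.6-fold higher at 24 h and 25.1-fold higher at 48 h with ENPP1+ATP. Aspn and Ogn, small leucine-rich proteoglycans that bind collagen, fell by 3.65 and 2.97 on the log2 scale at 24 h. Ccn5 fell by 2.22 in AMP medium at 48 h, and Fbn2, a fibrillin of microfibrils, fell by 2.35 with ENPP1+ATP at 48 h.

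Receptors of these proteins fell more often than they rose with ENPP1+ATP and AMP. Of 23 tested, ENPP1+ATP medium lowered 17 and raised none at 24 h (median -0.54, against 49.1% of all genes called), and lowered 13 and raised 4 at 48 h (median -0.17, against 45.2%). Itga8, the osteopontin and tenascin receptor subunit, was at -2.57 ± 0.20 and Itgb8, which activates latent TGF-beta, at -1.78 ± 0.18 at 24 h. Cd47, the thrombospondin receptor, was at -0.93 ± 0.05 at 24 h and -0.50 ± 0.05 at 48 h. AMP medium lowered 16 and raised 2 at 24 h, among them Itgb5 (-1.12 ± 0.06), and lowered 11 and raised 5 at 48 h. ATP medium lowered 9 and raised none at 24 h (background 11.1%), and lowered 2 and raised 2 at 48 h (background 7.83%).

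Of 15 proteases tested, ENPP1+ATP medium lowered 7 and raised 3 at 24 h, and lowered 5 and raised 8 at 48 h (medians -0.30 and 0.22, against 49.1% and 45.2% of all genes called). AMP medium lowered 7 and raised 4 at 24 h, and lowered 3 and raised 8 at 48 h. ATP medium lowered 5 and raised 1 at 24 h (background 11.1%), and lowered 1 and raised 2 at 48 h (background 7.83%). With ENPP1+ATP at 24 h the metalloproteases Adamts1 (-2.13 ± 0.07), Adamts12 (-1.502 ± 0.213) and Adamts5 (-1.30 ± 0.06) fell. At 48 h Plau, which activates plasminogen, rose (1.70 ± 0.14), as did Ctsb, a lysosomal protease (0.92 ± 0.05).

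Among 23 TGF-beta and mechanical regulators, ENPP1+ATP medium lowered 14 and raised 2 at 24 h (median -0.27, against 49.1% of all genes called), and lowered 9 and raised 6 at 48 h (median 0.044, against 45.2%). AMP medium lowered 12 and raised 4, then lowered 9 and raised 8. ATP medium lowered 5 and raised 1 (background 11.1%), then lowered 2 and raised 3 (background 7.83%). Tgfb2 and Tgfb3, ligands that induce matrix genes, were at -1.17 ± 0.09 and -0.77 ± 0.08 with ENPP1+ATP at 24 h. Ankrd1, a target of YAP, rose 2.15-fold at 24 h and 2.82-fold at 48 h. At 48 h the transcription factors Scx (-0.66 ± 0.10) and Twist1 (-0.64 ± 0.07) fell with ENPP1+ATP, as did Skil (-0.67 ± 0.07) and Twist1 (-0.62 ± 0.07) with AMP.

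In the NRVM cultures 9 of the 10 genes passed the filter among 13461 genes. Comp did not, with 0 to 0.638 CPM. The enzyme alone called none of them, against 0% of genes, with 693 genes at an unadjusted p under 0.05 in edgeR and 0 called by DESeq2. Their log2 fold changes lay between -0.03 and 0.13. ATP medium lowered 8 and raised 1 (background 59.9%), ENPP1+ATP medium lowered 8 and raised 1 (background 56%), and AMP medium lowered 7 and raised none (background 57.2%). All 3 comparisons share the vehicle libraries.

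**Figure D3:**
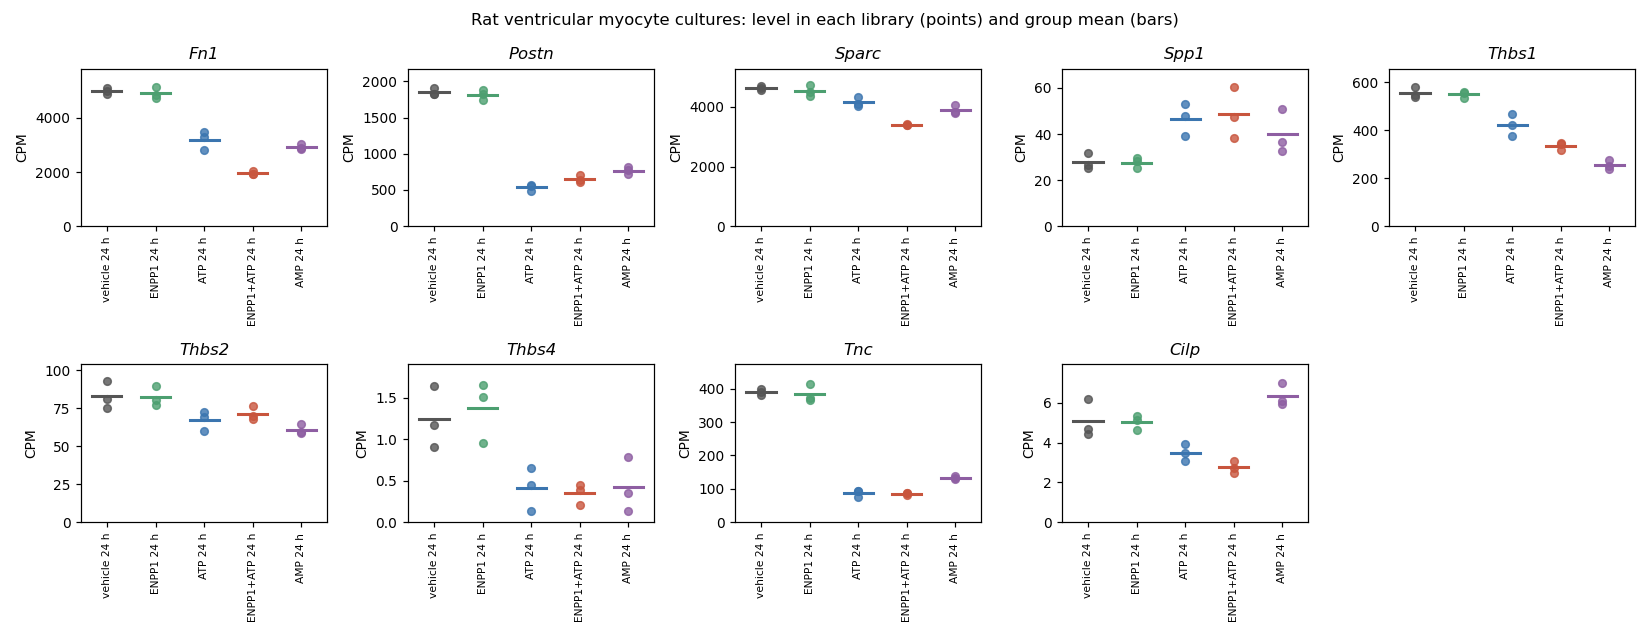
Level in CPM of the 9 genes tested in NRVM cultures, by medium. Points are libraries, bars are group means, and each vertical axis starts at 0. Postn libraries lie between 488 and 816 CPM in ATP, ENPP1+ATP and AMP medium, and between 1740 and 1907 CPM in vehicle and ENPP1 medium.

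Tnc fell most. Its 3 vehicle libraries held 381, 398 and 391 CPM, and ENPP1+ATP libraries 86.4, 80.5 and 87.7 CPM, 4.60-fold lower (-2.20 ± 0.07, adjusted p = 2.39e-14). ATP libraries were close to these, at 74.1, 94.0 and 93.4 CPM (-2.16 ± 0.07), and AMP libraries lay in between, at 131, 139.6 and 131 CPM (-1.54 ± 0.07). Postn held 1822, 1828 and 1907 CPM in vehicle. It was at 488, 568 and 561 CPM in ATP medium (-1.78 ± 0.06, adjusted p = 1.91e-15), 615.5, 639.9 and 699.96 CPM in ENPP1+ATP medium (-1.51 ± 0.06) and 715, 774 and 816 CPM in AMP medium (-1.27 ± 0.06). No library in these 3 media reached the vehicle range for either gene.

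Fn1 had 4896, 5112 and 4996 CPM in vehicle, 2822, 3485 and 3291 CPM in ATP medium and 1929.6, 2032 and 1942 CPM in ENPP1+ATP medium. The last was 2.54-fold below vehicle (-1.35 ± 0.06, adjusted p = 1.01e-14). Thbs1 was lowest in AMP medium, at 239, 251 and 274 CPM against 546, 537 and 580.02 CPM in vehicle (-1.12 ± 0.07, adjusted p = 3.29e-10), and was at -0.73 ± 0.07 with ENPP1+ATP and -0.39 ± 0.07 with ATP. Sparc fell little, by 0.16 in ATP, 0.44 in ENPP1+ATP and 0.25 in AMP medium on the log2 scale, each with adjusted p of 0.000552 or lower.

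The low genes changed too. Thbs4 had 1.65, 1.17 and 0.913 CPM in vehicle and 0.211, 0.447 and 0.388 CPM in ENPP1+ATP medium (-1.80 ± 0.50, adjusted p = 0.00216), with no overlap. In AMP medium (-1.54 ± 0.49, adjusted p = 0.00642) its call was lost without AMP replicate 1 (0.0622) or vehicle replicate 1 (0.0517). Cilp had 4.68, 6.20 and 4.41 CPM in vehicle and 2.47, 3.07 and 2.71 CPM in ENPP1+ATP medium (-0.89 ± 0.19, adjusted p = 9.61e-05), but 6.98, 5.95 and 6.10 CPM in AMP medium, where it did not pass (0.31 ± 0.17, adjusted p = 0.112). Without vehicle replicate 2 its fall with ATP was lost (adjusted p = 0.109) and it was called higher with AMP (0.48, adjusted p = 0.0322). Thbs2 moved between -0.45 with AMP and -0.22 with ENPP1+ATP, and the latter was lost without ENPP1+ATP replicate 1 (0.0744), ENPP1+ATP replicate 3 (0.097) or vehicle replicate 3 (0.132).

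Spp1 was the one gene of the list to rise. It had 26.6, 25.3 and 31.6 CPM in vehicle, 47.7, 53.0 and 39.2 CPM in ATP medium (0.75 ± 0.21, adjusted p = 0.00993) and 38.4, 60.4 and 47.2 CPM in ENPP1+ATP medium (0.81 ± 0.21, adjusted p = 0.00682). AMP libraries held 32.8, 36.7 and 51.0 CPM and did not pass in edgeR (0.53 ± 0.21, adjusted p = 0.0571), while they passed in DESeq2 (adjusted p = 0.0223) and without AMP replicate 1 (adjusted p = 0.0364). Every library of the 3 media lay above every vehicle library.

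Against ATP medium, ENPP1+ATP medium changed 4 of the 9 genes (background 27.5%). Fn1 (-0.70 ± 0.06, adjusted p = 2.68e-09), Sparc (-0.29 ± 0.04, adjusted p = 8.27e-08) and Thbs1 (-0.34 ± 0.07, adjusted p = 0.000986) were lower with the enzyme. Postn was higher (0.27 ± 0.06, adjusted p = 0.00153). Tnc differed by -0.04 ± 0.07, with a 95% interval from -0.19 to 0.11.

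The fibroblast genes of the rat cultures moved beside these. Their sum was 25764 to 27167 CPM in vehicle, 11274 to 12715 CPM in ATP, 9252 to 9615 CPM in ENPP1+ATP and 12245 to 13083 CPM in AMP medium, over the 12 of 13 genes in the table. The cardiomyocyte list (11 of 12 genes in the table) was at 46253 to 49441 CPM in AMP medium, within or near the vehicle range, at 39965 to 41876 CPM in ENPP1+ATP and at 26756 to 28948 CPM in ATP medium. The macrophage list went from 3.19 to 3.64 CPM in vehicle to between 12.03 and 14.4 CPM in ATP medium, with C1qa, C1qb and C1qc at 0.228 CPM or less. The endothelial list was at 38.3 to 44.8 CPM in vehicle and at 43.3 to 105 CPM in ATP, ENPP1+ATP and AMP medium. Their part in the members' changes was not tested.

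In NRVM cultures the lists are to be read against 56% of all genes called with ENPP1+ATP (3692 lower, 3846 higher) and 57.2% with AMP (3772 lower, 3931 higher). There were 32 relatives tested, of which ENPP1+ATP medium lowered 18 and raised 4 (median -0.65, all genes 0.0079) and AMP medium lowered 15 and raised 3, a share near that of all genes. The fibrillins Fbn2 (-1.99 ± 0.07) and Fbn1 (-1.86 ± 0.11) fell with ENPP1+ATP, as did Spon1 (-2.23 ± 0.64, adjusted p = 0.0119). Of 23 receptors 18 fell and 1 rose with ENPP1+ATP, and 17 fell and 2 rose with AMP. They included Lrp1, a scavenger receptor for thrombospondins (-1.51 ± 0.07 with ENPP1+ATP), Itga4 (-1.45 ± 0.17), Itgb3 (-1.25 ± 0.08) and Egfr (-1.88 ± 0.10 with AMP). Of 14 proteases 8 fell and 4 rose with ENPP1+ATP, and 7 fell and 5 rose with AMP. Of 23 regulators 13 fell and 1 rose with ENPP1+ATP, and 16 fell and none rose with AMP, among them Tgfb3 (-1.62 ± 0.07). Ankrd1, which rose in CFs, fell in NRVM cultures with ENPP1+ATP (-0.65 ± 0.04). With ATP (background 59.9%), 18 relatives fell and 7 rose, and 12 receptors fell and 2 rose. Of the proteases 6 fell and 5 rose with ATP, and of the regulators 14 fell and 4 rose.

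In the injured heart the fibroblast-like class, 3658 ENPP1CKO and 1779 control cells, held most counts of 8 of the 10 genes in both libraries. These shares in the ENPP1CKO and control library were 97.0% and 92.98% for Cilp, 97.0% and 94.5% for Comp, 95.9% and 91.5% for Postn, 95.7% and 91.2% for Thbs2, 95.6% and 91.5% for Thbs4, 93.7% and 72.1% for Tnc, 92.5% and 85.4% for Sparc and 91.5% and 65.3% for Fn1. Spp1 was the reverse, with 81.5% and 93.3% of its counts in macrophage-like cells. Thbs1 was divided, with 75.6% and 41.3% of counts in fibroblast-like and 19.8% and 53.2% in macrophage-like cells. These shares also move with the makeup of each library, which was 50.4% fibroblast-like and 28.7% macrophage-like cells for ENPP1CKO and 34.0% and 49.0% for control. The clustering left out the 10 genes and their listed relatives.

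**Figure D4:**
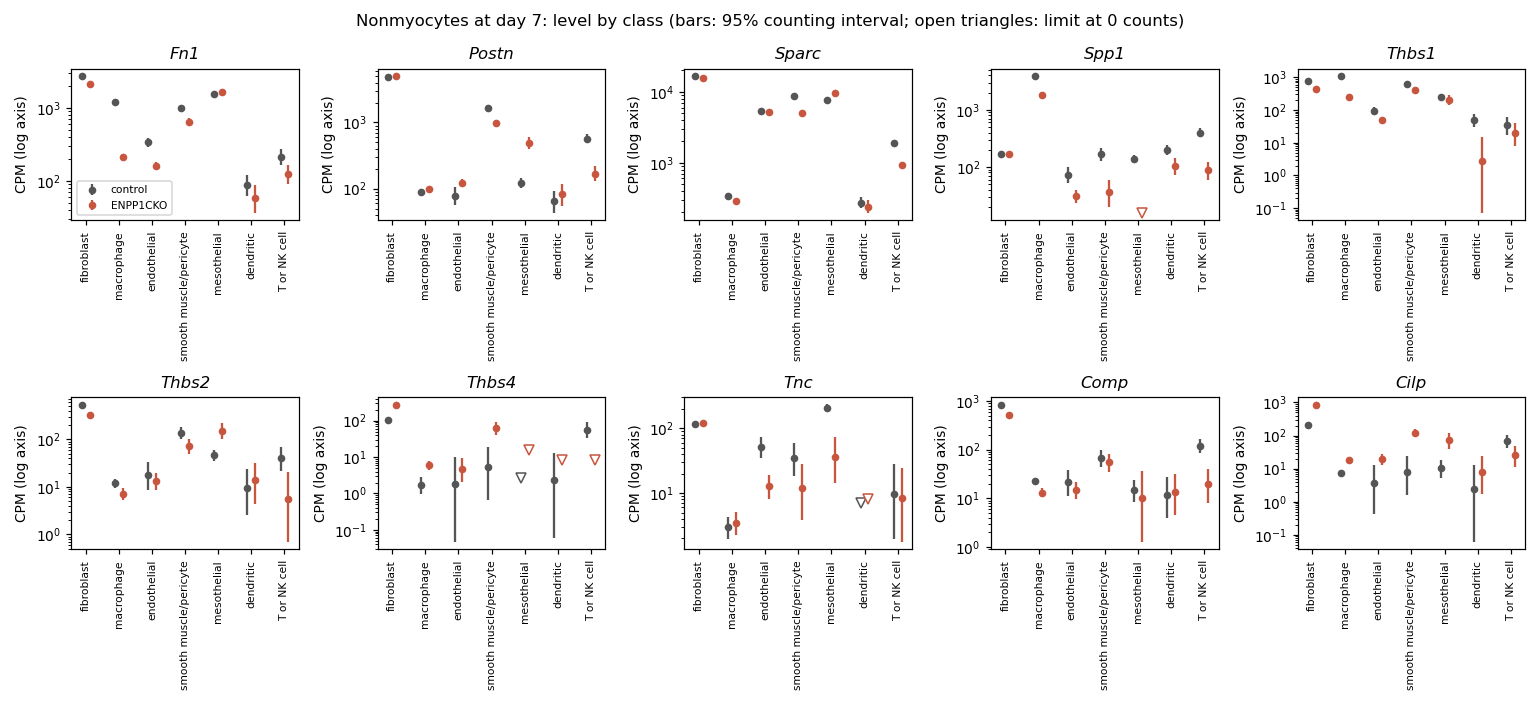
Level in CPM of each gene by cell class in the control and ENPP1CKO libraries, on log axes. Bars are exact 95% Poisson intervals, which cover counting error only, and open triangles mark the limit that 3 counts would give where no count was found. Spp1 is highest in macrophage-like cells, at 3944 CPM in control and 1802 CPM in ENPP1CKO.

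Levels in the other classes are given by gene, and the unnamed cluster 4 (61 and 77 cells) is given where it lies among them. That cluster held 10 of the 11 fibroblast markers, and was left unnamed by the rule on leading genes. Its 10 leading genes, among them Acta2 and the cell division genes Ccnb1 and Cdc20, held no fibroblast marker. Sparc in the control library was at 16930 CPM in fibroblast-like cells, 14410 in the unnamed cluster, 8670 in smooth muscle or pericyte-like, 7783 in mesothelial-like and 5411 CPM in endothelial-like cells. In the ENPP1CKO library endothelial-like (5113 CPM, interval 5007 to 5221) and smooth muscle or pericyte-like cells (4996 CPM, interval 4784 to 5215) did not differ beyond counting error. Fn1 in control was at 2758 CPM in fibroblast-like, 2083 in the unnamed cluster, 1534 in mesothelial-like, 1195 in macrophage-like and 991 CPM in smooth muscle or pericyte-like cells. Postn in control was at 4951 CPM in fibroblast-like cells, 4233 CPM in the unnamed cluster (4817 CPM in ENPP1CKO) and lower in smooth muscle or pericyte-like cells (1630 CPM, or 983 CPM in ENPP1CKO). Tnc in control was at 207 CPM in mesothelial-like cells (interval 182 to 235), 203 CPM in the unnamed cluster (interval 169 to 241) and 117 CPM in fibroblast-like cells (interval 110.1 to 124). With cells thinned to 1000 counts, mesothelial-like cells (136.8 CPM, interval 78.2 to 222) and fibroblast-like cells (105.5 CPM, interval 90.8 to 122) did not differ beyond counting error. In ENPP1CKO the 30 mesothelial-like cells had 7 counts of it. Thbs1 in control was at 1144 CPM in neutrophil-like cells (interval 923 to 1401, 93 counts) and 1120 CPM in macrophage-like cells. It was at 783 CPM in fibroblast-like and 647 CPM in smooth muscle or pericyte-like cells. Thinning left out 82 of the 97 control neutrophil-like cells and gave 1067 CPM (interval 610 to 1732). The 16 neutrophil-like cells of ENPP1CKO had 5 counts of Thbs1.

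Low values in macrophage-like cells were read against free RNA. Scaled by the fibroblast genes Dcn, Lum, Col1a2 and Pdgfra, fibroblast RNA made up 1.65% and 1.98% of the counts of macrophage-like cells in the ENPP1CKO and control library. Postn, Sparc, Thbs2, Thbs4, Tnc, Comp and Cilp counts there were 0.835 to 1.82 times what that share gives, so they were read as background. Fn1, Spp1 and Thbs1 exceeded it by 6.12-fold or more. Ratios between libraries are therefore given only where each library had at least 20 counts and at least 2 times the free fibroblast and macrophage RNA expected, a rule set after the values were seen.

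As 1 library per genotype was made, no test between genotypes exists, and the intervals below, exact Poisson for levels and exact binomial for ratios, are limits on counting error. In fibroblast-like cells Cilp was at 857 CPM in the ENPP1CKO library and 202 CPM in the control library (intervals 843 to 872 and 194 to 212), a log2 ratio of 2.08 (interval 2.01 to 2.15). It was found in 66.6% and 37.3% of these cells, and in 41.9% and 14.9% after every cell was thinned to 1000 counts, which left out 110 and 44 shallower cells. In T or NK cell-like cells, which should lack it, 2.22% and 4.20% of cells had a count, at median depths of 1564.5 and 1648 counts against 4026 and 5074 in fibroblast-like cells. Counts there were uneven, with the 180 control counts of Postn in 15 of 143 cells. Thbs4 was also higher, at 273 and 103 CPM (log2 ratio 1.40, interval 1.302 to 1.502), in 23.3% and 11.9% of cells. After thinning to 1000 counts, 12.6% and 4.73% of fibroblast-like cells had a Thbs4 count. Before thinning, 0% and 2.10% of T or NK cell-like cells had one. Over 12615 genes the median log2 ratio in this class was 0.014, with quartiles of -0.18 and 0.21.

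The other thrombospondins were lower in the ENPP1CKO library. Thbs1 was at 441 against 783 CPM (log2 ratio -0.83, interval -0.87 to -0.78), Thbs2 at 325 against 532 CPM (-0.71, interval -0.77 to -0.66) and Comp, of the same family, at 513 against 838 CPM (-0.71, interval -0.75 to -0.66). Fn1 was at 2109 against 2758 CPM (-0.39, interval -0.41 to -0.36). Sparc (-0.11), Postn (0.045), Tnc (0.061, interval -0.045 to 0.17) and Spp1 (-0.034, interval -0.12 to 0.055) lay close to 0.

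**Figure D5:**
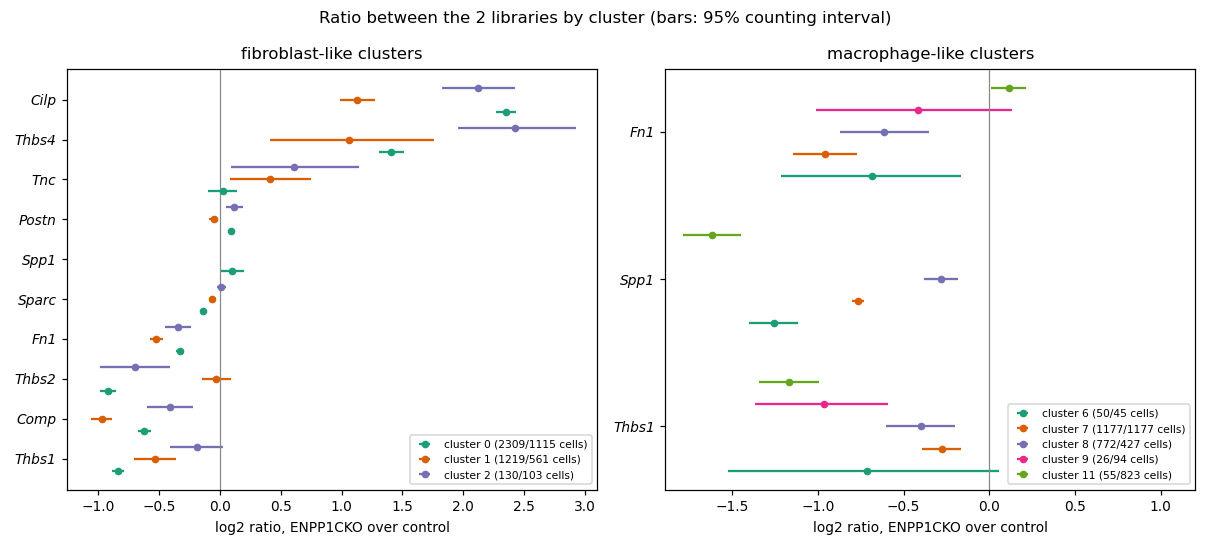
Log2 ratio of ENPP1CKO over control by fibroblast-like cluster (left, 10 genes) and macrophage-like cluster (right, Fn1, Spp1 and Thbs1). Bars are exact 95% counting intervals, and cell numbers are ENPP1CKO then control. Points are left out under 20 counts in a library or under 2 times the free RNA expected, and Cilp and Thbs4 lie above 0 in each fibroblast-like cluster.

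Fibroblast-like cells formed 3 clusters. Cluster 0 (2309 and 1115 cells) was led by C1qtnf3, Col11a1 and Aspn with Thbs4 and Cilp also among its top 10 genes, cluster 1 (1219 and 561 cells) by Clec3b, Sfrp2 and Sfrp1, and cluster 2 (130 and 103 cells) by the interferon-induced Ifit3b, Iigp1 and Ifit3. In the control library cluster 0 held more Thbs1 than cluster 1 (1022 against 195 CPM), more Thbs4 (141 against 9.93 CPM) and more Tnc (147.5 against 42.9 CPM). Comp and Cilp differed less, at 816 against 894 CPM and 205 against 197 CPM.

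The ratio between libraries was alike in sign over the clusters for Cilp, Thbs4, Comp and Fn1, among others. Thbs1 was also lower in each cluster, most in cluster 0. Tnc was near 0 in cluster 0 and higher in clusters 1 and 2, from 267 and 108 counts and from 88 and 49 counts. Cilp was at 2.35, 1.13 and 2.12 in clusters 0, 1 and 2 (1045 against 205 CPM, 429.8 against 197 CPM and 841 against 194 CPM), and Thbs4 at 1.41, 1.06 and 2.43. Comp was at -0.62, -0.97 and -0.41, and Fn1 at -0.33, -0.53 and -0.35. Thbs2 was lower in cluster 0 (-0.92, interval -0.99 to -0.86) and near 0 in cluster 1 (-0.031, interval -0.15 to 0.090). Spp1 was near 0 in cluster 0 (0.10, interval 0.0040 to 0.20). It has no ratio in clusters 1 and 2, where its counts were 1.07 and 1.11 times (cluster 1, ENPP1CKO and control) and in control 1.01 times (cluster 2) the free macrophage RNA expected. Differences between clusters were not tested. Subtracting macrophage RNA, estimated from C1qa, C1qb and C1qc at 0.894% and 1.66% of fibroblast-like counts, moved the Spp1 ratio of the whole class to 0.52, an alternative added after seeing the data.

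In macrophage-like cells, 2080 ENPP1CKO and 2566 control cells, the 3 genes above background were lower in the ENPP1CKO library. Fn1 was at 213 against 1195 CPM (log2 ratio -2.49, interval -2.56 to -2.41), Thbs1 at 259 against 1120 CPM (-2.12, interval -2.19 to -2.04) and Spp1 at 1802 against 3944 CPM (-1.13, interval -1.16 to -1.10). Different clusters held the class in each library. ENPP1CKO cells were mostly in clusters 7 (1177 cells) and 8 (772 cells), and control cells in clusters 7 (1177 cells) and 11 (823 cells). Cluster 11, with Ccl24 and Slpi among its leading genes, had 55 ENPP1CKO cells, and a cluster mostly of 1 library may mark that library rather than a cell type.

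Cluster 11 held 87.4% of the control counts of Fn1 in macrophage-like cells, 74.7% of those of Thbs1 and 30.0% of those of Spp1. Within it Fn1 was close in the libraries, at 5733 and 5303 CPM (log2 ratio 0.11, interval 0.010 to 0.21), while Thbs1 was at 1893 and 4251 CPM (-1.17, interval -1.34 to -0.995) and Spp1 at 1960 and 6011 CPM (-1.62, interval -1.79 to -1.45). Without this cluster, an alternative added after seeing the data, the class ratios were -0.95 for Fn1, -0.66 for Thbs1 and -0.93 for Spp1. These still mix clusters held in unlike numbers by the libraries, and are not changes within 1 cluster. Cluster 8, with 772 and 427 cells at median depths of 3341 and 3545 counts, had 1938 and 1405 counts of Spp1. It had 473 and 372 counts of Thbs1 and 258 and 235 of Fn1. In cluster 7, led by Mmp12, Ccl8 and Fcrls, Spp1 was at 2506 against 4254 CPM (-0.76), Fn1 at 84.6 against 164 CPM (-0.96) and Thbs1 at 251 against 304 CPM (-0.28). In the small monocyte-gene cluster 9, led by Chil3 and Ly6c2, Thbs1 was at 1070 against 2090 CPM from 63 and 586 counts.

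In endothelial-like cells (932 and 191 cells) Fn1 was at 161 against 339 CPM (-1.07, interval -1.34 to -0.80), Thbs1 at 48.2 against 97.0 CPM (-1.01, interval -1.52 to -0.49) and Tnc at 12.8 against 52.1 CPM (-2.03, interval -2.90 to -1.18), from 22 and 29 counts. With cells thinned to 1000 counts, the Tnc ratio rested on 7 and 5 counts and its interval spanned 0 (-1.50, interval -3.37 to 0.50), while those of Fn1 (-0.94, interval -1.44 to -0.43) and Thbs1 (-1.24, interval -2.22 to -0.22) did not. Cluster 14 held 65 of the 932 ENPP1CKO and 30 of the 191 control cells of this class. Sparc was at 5113 against 5411 CPM (-0.082). Its sign turned with TMM factors (0.025) and with predicted doublets kept (0.077). The Fn1 ratio was -0.39 with doublets kept and -1.41 with stricter cell filters. In smooth muscle or pericyte-like cells (157 and 77 cells) Sparc was at 4996 against 8670 CPM (-0.80) and Thbs1 at 403 against 647 CPM (-0.68), and in dendritic-like cells Spp1 was at 104 against 199 CPM (-0.94, interval -1.53 to -0.37). After thinning, the intervals of this Thbs1 ratio (-0.41, interval -1.12 to 0.32) and this Spp1 ratio (-0.46, interval -1.83 to 0.83) spanned 0. That of Sparc in smooth muscle or pericyte-like cells did not (-0.62, interval -0.79 to -0.45).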

How the data were processed

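Gene-level counts of reads (bulk) and of UMIs per barcode (single cell) were deposited by the authors. Their processing notes name STAR 2.5.3a, Cell Ranger and the builds mm10 and rn6, and the gene counter and its annotation are not given in the sources used here. The 10 genes and all lists were chosen with earlier results of these data known.

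Bulk counts were fitted per experiment over all groups with edgeR 4.0.16 (R 4.3.3; filterByExpr with a minimum count of 10, TMM factors, quasi-likelihood test, Benjamini-Hochberg adjustment over all genes tested), and a gene was called at an adjusted p under 0.05. All bulk p-values in the report are from edgeR unless DESeq2 1.42.0 is named. Standard errors were taken from the fold change and its F statistic, and 95% intervals of fold changes from these by a normal approximation. CPM used TMM-scaled library sizes. Positions and exon lengths came from the GENCODE annotation (GRCm38), and promoters from RefSeq. From each fixed list up to 3 called genes with the largest absolute log2 fold change and a mean log2 CPM of at least 2 were named. Some genes that this rule or the clustering would name are not reported here.

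Cells needed 200 genes or more and a mitochondrial share no higher than 20%, and predicted doublets (Scrublet in scanpy 1.11.5; 151 in ENPP1CKO, 71 in control) were removed. Clustering used 2000 variable genes, 30 principal components, 15 neighbors and Leiden resolution 0.5, without 50 genes (the 10 and their relatives). Clusters were named from fixed markers found in at least 10% of cells at 2-fold or more, with at least 3 markers and a share of the list's markers at least 0.15 above that of the next class. A cluster with more markers of another class than of its own among its 10 leading genes stayed unnamed, as did a shallow one with none of its own. Counts were summed per class and library. Alternatives were another normalization, filter and tool, a replicate block, each library left out, stricter cell filters, another resolution, doublets kept, thinning and free RNA subtracted. Single-cell intervals are 95% and cover counting error only.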

Additional observations from a re-analysis of the deposited data

Results flagged for a closer look

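The effect of a medium differed between 24 h and 48 h in CFs by the interaction test (edgeR, adjusted over all genes; n = 2 per group). This held for 2 of the 8 genes tested with ENPP1+ATP, against 30% of all genes, and for 5 with AMP, against 31.7%. For ENPP1+ATP the difference of log2 fold changes, 48 h minus 24 h, was 0.52 for Thbs1 and -2.50 for Comp. For AMP it was 0.43 for Fn1, 0.42 for Postn, 0.27 for Sparc, 0.89 for Thbs1 and -1.88 for Comp. Positive values mark a smaller fall at 48 h, and for Comp the fall was larger then, on 2 to 14 reads per library in these media.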

How the results depend on the processing

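Of 750 values of single genes with a library left out, 708 kept direction and call, 36 lost and 6 gained it. Of 675 under other alternatives, 665 kept both, 1 lost and 9 gained the call, and none of either kind reversed. Leaving out 1 library gave 920 to 1205 genes for ATP at 24 h (1983 with all libraries), 646 to 929 for ATP at 48 h (1400), 0 to 129 for ENPP1 at 48 h (129 without ENPP1 replicate 2) and 235 to 440 for vehicle over time (873). Of the 10 genes it gave 2 to 4 calls for ATP at 48 h (5 with all libraries) and 1 to 2 for vehicle over time (2). Without the filter on low counts, ENPP1 alone called 26 genes in CFs at 24 h, 180 at 48 h and 14 in NRVMs. The single genes that then gained a call were Thbs2 (adjusted p = 0.0412) and Spp1 (0.0171) with ENPP1+ATP at 24 h, Fn1 with ATP at 48 h (0.0196), and Spp1 for vehicle over time (0.000664) and for ENPP1+ATP over time (3.49e-16). For Spp1 with ENPP1+ATP the estimates hardly moved in that fit, so these p-values rest on its estimate of the spread. Thbs2 with ENPP1+ATP at 24 h also passed with libraries of that time only (0.0406), where Sparc with ATP at 48 h was lost (0.0779). With DESeq2, Spp1 passed for ENPP1+ATP over time (0.035) and for AMP in NRVMs (0.0223). The causes were not tested. The labels give no shared batch for a replicate number. Few same-numbered pairs correlated above 0.1, 6 of 90 in CFs and 1 of 30 in NRVMs. Deviations correlated at -0.112 to 0.277 in CFs and -0.166 to 0.124 in NRVMs, so libraries were not treated as paired. In CFs 16 of 20 libraries were closest to their own number, a weak hint from the data and not from the design. With 2 libraries per CF group, deviations from the group mean mirror each other. The libraries of a CF group therefore always give the same answer, and these CF counts are not of independent libraries or pairs. In NRVMs, with 3 libraries per group, the count was 6 of 15. The share reached by chance differs between such designs, so the CF and NRVM counts cannot be compared. A replicate block moved no count by over 1.5 times, for example to 2129 genes for ATP at 24 h, and made 6 calls in place of 5 for AMP over time, the added gene being Tnc (adjusted p = 0.048). In single cells 95 of 123 values stayed within their counting interval, 26 moved and 2 turned, both Sparc in endothelial-like cells (0.077 with doublets kept, 0.025 with TMM factors). The median ratio of the 10 genes in fibroblast-like cells, -0.074, became -0.14 at Leiden resolution 1.0. Comp in CFs and the classes under 200 cells are limited by depth.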
